A study of Mus musculus with 14 samples.

Results

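Whole lungs of mice ventilated at a high tidal volume, labelled VALI (4 arrays), were compared with lungs labelled Control (4 arrays), which together are 8 of the 14 arrays of the series. Arrays were taken as their titles label them, and every probe set with 1 gene symbol could enter, 34958 of the 45101 probe sets on the array. VALI animals had been ventilated for 4 hours, at a tidal volume of 40 ml/kg in the sample labels and of 30 ml/kg in the series text, and Control animals had been given PBS. Animals of both groups were 18 to 22 weeks old, and no label gives a strain or an altered allele for them. The other arrays are labelled PBEF+/- (3 arrays, not ventilated, 18 to 22 weeks) and VILI PBEF+/- (3 arrays, ventilated like VALI, 8 to 12 weeks), and their values are given beside those of single genes only. A description field calls every animal of the series a control, so groups were read from the titles. Nothing in the labels says whether each array holds its own animal, and the p-values therefore rest on the spread of these arrays, part of which may be technical.

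Mechanical ventilation with large breaths overstretches the airspaces and the capillaries around them. Stretched epithelium and endothelium are known to release chemokines and cytokines such as interleukin-6, to recruit neutrophils and to switch on early response and antioxidant genes, and the barrier between blood and air becomes leaky. Probe set levels are log2 values, so a difference of 1 stands for a doubling, and each ± after a difference is the standard error of the limma model. A gene is said to rise or fall where its adjusted p was under 0.05. Where every array of the lower group lay under the median of its own array, the low level is only a bound, and the fold is then also given as "at least", against that median.

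The array labelled VALI replicate 4 stood apart from the other VALI arrays. On the first principal component of the tested probe sets, which held 46% of the variance, VALI 1 to 3 lay at 43.7 to 47.6 and VALI 4 at -26.6, between the Control arrays at -39.4 to -16.6. The second component held 17.8%, and there VALI 4 lay apart from both groups. It was at -46.6, against -16.6 to 5.26 in VALI 1 to 3 and -4.26 to 32.3 in Control. Xist, the transcript of the inactive X chromosome, read 13.44 to 13.88 in VALI 1 to 3 and 2.64 in VALI 4, against 2.55, 13.73, 13.33 and 2.56 in Control 1 to 4, and the Y-linked Eif2s3y showed the reverse, at 3.08 to 3.19 in VALI 1 to 3 and 10.95 in VALI 4, against 10.74, 3.13, 3.13 and 10.56 in Control 1 to 4. VALI 4 was thus the only ventilated array of the pair of groups with a male pattern, while Control held 2 arrays of each pattern, so sex and whatever else sets VALI 4 apart cannot be told apart. Skeletal muscle actin Acta1 read 15.15, 9.40, 8.85 and 15.83 in VALI 1 to 4 and 4.61 to 4.69 in Control, and muscle creatine kinase Ckm read 12.59, 7.08, 6.66 and 13.70 in VALI 1 to 4 and 7.30 to 7.94 in Control. Muscle transcripts were thus highest in VALI 1 and VALI 4, and their part in the results was not tested. Genes called with VALI 4 as labelled are described first. Genes first named after the values of Il6 and said to rise or fall did so without VALI 4 and did not pass as labelled. For most of them only the difference without VALI 4 is printed. Calls without VALI 4 are conditional on a choice that was made from its Il6 value. In the rest of the series PBEF+/- 3, labelled as not ventilated, read like the ventilated arrays for Il6 and for the other genes plotted as high in VALI 1 to 3 and not in VALI 4. Whether either label is right cannot be told from the files, and every array was kept in the group its label gives.

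With all arrays as labelled, limma called 26 of 19462 probe sets (0.134%), of 24 genes, with 22 higher (0.113%) and 4 lower (0.0206%) in VALI, and 4231 probe sets had an unadjusted p under 0.05. All 26 had VALI and Control arrays that did not overlap, and all 26 were also called without VALI 4. Without VALI 4 the count was 3171 (16.3%), with 1222 higher and 1949 lower. The 26 calls sat close to the threshold: 3 to 6 probe sets were called when VALI 1, 2 or 3 or any 1 Control array was left out, and 0 when all 14 arrays shared 1 estimate of the spread (3449 at an unadjusted p under 0.05). The 4 VALI arrays lay above all 4 Control arrays for 835 probe sets (4.29%) and below them for 1197 (6.15%), called or not. The median difference over all tested probe sets was -0.05 as labelled and -0.06 without VALI 4.

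The genes that rose with all arrays included neutrophil-attracting chemokines, early response factors, a decoy receptor and genes of ribosome production. Cxcl1, a chemokine that draws neutrophils, read 8.16, 7.37, 9.04 and 6.39 in VALI 1 to 4, against 3.08, 2.90, 2.83 and 3.48 in Control 1 to 4, and rose by 4.66 ± 0.49 (at least 8.46-fold, adjusted p = 0.0273). Its brighter probe set moved the same way without passing as labelled (2.84 ± 0.47, adjusted p = 0.0653). Cxcl2, a second chemokine for the same receptor, read 7.18, 7.58, 8.37 and 5.24 in VALI 1 to 4, against 2.59, 2.62, 3.40 and 2.44 in Control 1 to 4, and rose by 4.33 ± 0.59 (at least 5.41-fold, adjusted p = 0.0465). VALI 4 was the lowest VALI array for both chemokines and still lay well above every Control array.

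**Figure D1:**
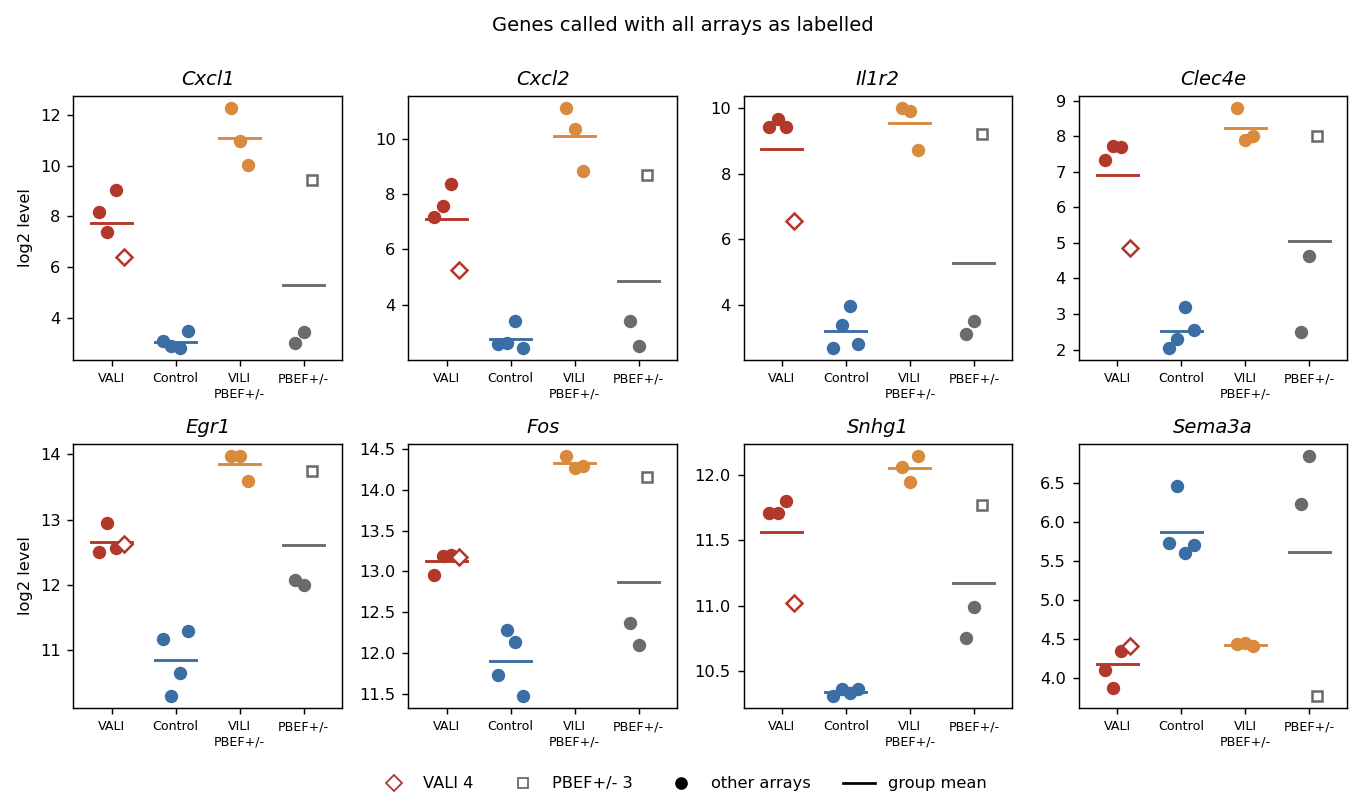
Log2 level of 8 genes called with all arrays as labelled, 1 panel a gene, with 1 point an array for VALI, Control, VILI PBEF+/- and PBEF+/- and a bar at each group mean. VALI 4, drawn as an open diamond, lay above all 4 Control arrays in every panel except that of Sema3a, where all 4 VALI arrays lay below them.

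Il1r2, the decoy receptor that captures interleukin-1, read 9.42, 9.67, 9.41 and 6.55 in VALI 1 to 4, against 2.69, 3.38, 3.95 and 2.79 in Control 1 to 4, and rose by 5.56 ± 0.67 (adjusted p = 0.0339). Clec4e, a receptor of neutrophils and macrophages for damaged cells and fungal glycolipids, read 7.33, 7.72, 7.69 and 4.86 in VALI 1 to 4, against 2.05, 2.31, 3.19 and 2.55 in Control 1 to 4, a rise of 4.38 ± 0.61 (adjusted p = 0.0465). For both, the 4 Control arrays lay under the median of their arrays, and set against that median VALI was at least 17.2-fold higher for Il1r2 and at least 4.74-fold higher for Clec4e. On the log2 scale VALI 4 sat about midway between VALI 1 to 3 and Control in both genes, but these Control levels are only bounds. For Clec4e VALI 4 was just above the array medians, which ran from 4.61 to 4.75. Neutrophils express both, and in whole lung more cells of a type and more RNA per cell cannot be told apart. Tgm1, the transglutaminase that crosslinks the envelope of stratified epithelium, rose by 3.77 ± 0.43 (at least 7.06-fold, adjusted p = 0.0286), and Rdh12, a retinol dehydrogenase, by 3.09 ± 0.43 (at least 3.46-fold, adjusted p = 0.0465).

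Among early response factors, which are transcribed within minutes of a stimulus, Egr1, Fos and Junb rose as labelled. Egr1 read 12.50, 12.94, 12.56 and 12.62 in VALI 1 to 4, against 11.17, 10.31, 10.65 and 11.29 in Control 1 to 4, and rose by 1.80 ± 0.21 (adjusted p = 0.0339). Fos read 12.96, 13.19, 13.20 and 13.17 in VALI 1 to 4, against 11.73, 12.28, 12.14 and 11.48 in Control 1 to 4, and rose by 1.22 ± 0.17 (adjusted p = 0.0465). VALI 4 lay within the range of VALI 1 to 3 for both genes. Outside the comparison Egr1 read 13.98, 13.98 and 13.59 in VILI PBEF+/- 1 to 3, against 12.08, 12.00 and 13.75 in PBEF+/- 1 to 3. PBEF+/- 1 and 2, which were not ventilated, thus lay above every Control array and below every VALI array for Egr1. Junb rose by 1.78 ± 0.24 (adjusted p = 0.0437), with VALI 4 at 10.41 below VALI 1 to 3 at 10.88 to 11.38 and above Control at 8.87 to 9.62.

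Genes of the nucleolus, of splicing and of the cytoskeleton also rose as labelled. Snhg1, a host transcript of small nucleolar RNAs, read 11.71, 11.71, 11.80 and 11.02 in VALI 1 to 4, against 10.31, 10.36, 10.33 and 10.36 in Control 1 to 4, a rise of 1.22 ± 0.16 (adjusted p = 0.0437). Noc2l, a nucleolar protein, rose by 1.37 ± 0.15 (adjusted p = 0.0286), Wdr43, a factor of ribosomal RNA processing, by 0.96 ± 0.13 (adjusted p = 0.0465), and the ribosomal protein gene Rpl12 by 1.51 ± 0.19 (adjusted p = 0.0437). The splicing factor Srsf2 rose by 0.87 ± 0.11 (adjusted p = 0.0437) and the alpha tubulin Tuba4a by 0.81 ± 0.08 (adjusted p = 0.014). A second probe set of Tuba4a was called in the same direction. G530011O06Rik and AA467197 rose by 4.98 ± 0.60 and 2.94 ± 0.39 (adjusted p = 0.0339 and 0.0437), which for G530011O06Rik was at least 15.9-fold.

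Falls with all arrays as labelled were limited to 4 probe sets. Sema3a, a secreted guidance cue that repels axons and endothelial cells, read 4.10, 3.87, 4.35 and 4.41 in VALI 1 to 4, against 5.73, 6.46, 5.60 and 5.70 in Control 1 to 4, a difference of -1.69 ± 0.22 (at least 2.28-fold lower, adjusted p = 0.0437). Ntn4, a netrin of basement membranes, differed by -0.89 ± 0.11 (adjusted p = 0.0437), Timp2, an inhibitor of matrix metalloproteinases, by -0.76 ± 0.10 (adjusted p = 0.0465), and Limch1, a regulator of non-muscle myosin, by -0.41 ± 0.06 (adjusted p = 0.0465). In all of them the lowest Control array was above the highest VALI array. These calls, like those of Cxcl1, Noc2l and Srsf2, rest on a probe set other than the brightest one of the gene.

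The probe sets with the smallest p as labelled were BC018473, St6galnac1 and Lsm12. BC018473 read 9.59, 9.84, 10.60 and 9.59 in VALI 1 to 4, against 2.08, 2.48, 2.49 and 2.49 in Control 1 to 4 (difference 7.52 ± 0.24, at least 37.9-fold, adjusted p = 5.22e-06). St6galnac1, a sialyltransferase of mucin-type sugars, read 6.98, 7.29, 6.80 and 6.94 in VALI 1 to 4, against 1.93, 2.22, 3.07 and 2.21 in Control 1 to 4 (difference 4.64 ± 0.25, at least 5.08-fold, adjusted p = 0.000239). Lsm12, an RNA-binding protein of the LSM family, read 6.10, 6.32, 6.57 and 6.77 in VALI 1 to 4, against 3.41, 3.96, 3.76 and 3.91 in Control 1 to 4 (difference 2.68 ± 0.20, at least 3.45-fold, adjusted p = 0.00208). These 3 probe sets were the only ones whose call held when any 1 of the 8 arrays was left out, and VALI 4 lay with VALI 1 to 3 for each. The brightest probe set of Lsm12 is another one, which rose by 1.24 ± 0.16 (adjusted p = 0.0437) and kept its call in 1 of the 8 leave-outs. BC018473 and St6galnac1 are direct neighbours in the RefSeq gene table of GRCm38.p6, and Lsm12 lies on the same chromosome with 396 genes between.

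In the 6 arrays outside the comparison these 3 genes did not go with ventilation. BC018473 read 2.55, 2.57 and 11.04 in VILI PBEF+/- 1 to 3, against 9.51, 8.30 and 2.03 in PBEF+/- 1 to 3. St6galnac1 read 2.09, 2.22 and 7.93 in VILI PBEF+/- 1 to 3, against 7.32, 5.54 and 2.20 in PBEF+/- 1 to 3. Lsm12 read 3.98, 3.65 and 6.45 in VILI PBEF+/- 1 to 3, against 6.45, 5.47 and 3.93 in PBEF+/- 1 to 3. For BC018473, St6galnac1 and this probe set of Lsm12 the levels formed a high and a low set with a gap between, and PBEF+/- 1 and 2, which were not ventilated, were in the high set with VILI PBEF+/- 3. On the brightest Lsm12 probe set, which read 6.02, 6.00 and 7.32 in VILI PBEF+/- 1 to 3, against 6.60, 6.24 and 6.10 in PBEF+/- 1 to 3, PBEF+/- 2 and 3 were not apart. Cxcl1 in contrast read 12.26, 10.97 and 10.01 in VILI PBEF+/- 1 to 3, against 3.01, 3.45 and 9.43 in PBEF+/- 1 to 3, high in all ventilated arrays and in PBEF+/- 3.

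Il6, the gene on which VALI 4 was singled out, read 9.60, 9.84, 9.85 and 2.78 in VALI 1 to 4, against 2.09, 2.13, 2.15 and 2.45 in Control 1 to 4. As labelled the difference was 5.81 ± 1.45 and did not pass (adjusted p = 0.0984). Without VALI 4 it was 7.56, given without a p because the array was left out for this gene, and VALI 1 to 3 were at least 34.4-fold above the median of the Control arrays, under which all 4 Control values lay. VALI 4 lay above all 4 Control arrays by a small margin. In the other arrays Il6 read 12.75, 12.33 and 10.32 in VILI PBEF+/- 1 to 3, against 2.10, 2.56 and 10.87 in PBEF+/- 1 to 3, so that PBEF+/- 3 was high although it is labelled as not ventilated.

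The promoters of 5 genes are shown because the genes divide over VALI 4: Cxcl1 and Cxcl2 were high in all 4 VALI arrays, while Il6, Srxn1 and Cldn4 were high in VALI 1 to 3 and at or near the Control level in VALI 4. Each is the 250 bases before the start site in the RefSeq table for GRCm38.p6. Capitals mark matches, on either strand, to the kappaB-type letters GGANTTTCC, which NF-kB proteins bind, and to TGAGTCA, which AP-1 dimers of Fos and Jun proteins bind and which reads TGACTCA on the other strand.
Cxcl1, chr5:90890995-90891244, plus strand: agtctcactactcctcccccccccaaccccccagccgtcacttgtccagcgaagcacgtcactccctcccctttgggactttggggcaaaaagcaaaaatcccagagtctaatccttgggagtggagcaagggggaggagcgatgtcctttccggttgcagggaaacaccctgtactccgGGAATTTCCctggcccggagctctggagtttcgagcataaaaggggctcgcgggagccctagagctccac
Cxcl2, chr5:90903649-90903898, plus strand: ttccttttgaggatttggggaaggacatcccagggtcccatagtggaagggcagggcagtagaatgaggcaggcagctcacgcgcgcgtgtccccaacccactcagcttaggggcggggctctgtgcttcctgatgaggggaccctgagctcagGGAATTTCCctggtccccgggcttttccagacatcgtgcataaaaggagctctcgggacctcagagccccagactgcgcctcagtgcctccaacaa
Il6, chr5:30012864-30013113, plus strand: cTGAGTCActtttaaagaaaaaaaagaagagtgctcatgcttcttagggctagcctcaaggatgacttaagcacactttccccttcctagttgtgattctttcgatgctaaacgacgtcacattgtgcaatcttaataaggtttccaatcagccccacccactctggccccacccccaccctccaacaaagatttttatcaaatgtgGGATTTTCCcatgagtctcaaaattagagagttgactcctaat
Srxn1, chr2:152105274-152105523, plus strand: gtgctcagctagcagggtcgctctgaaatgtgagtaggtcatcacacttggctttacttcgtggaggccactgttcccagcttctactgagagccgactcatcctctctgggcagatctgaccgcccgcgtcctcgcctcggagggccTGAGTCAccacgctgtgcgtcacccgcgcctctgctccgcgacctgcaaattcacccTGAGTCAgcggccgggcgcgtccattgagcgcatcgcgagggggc
Cldn4, chr5:134946935-134947184, minus strand: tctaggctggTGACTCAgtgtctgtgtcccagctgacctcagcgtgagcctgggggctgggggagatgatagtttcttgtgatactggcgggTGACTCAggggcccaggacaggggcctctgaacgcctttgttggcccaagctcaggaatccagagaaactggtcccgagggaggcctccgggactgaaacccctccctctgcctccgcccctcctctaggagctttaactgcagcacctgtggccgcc
The kappaB-type letters were chosen with these sequences in view and replaced the planned GGACTTTCC. That they match here follows from this choice. They occurred 1 time each before Cxcl1, Cxcl2 and Il6 and in 1.07% of all 32851 promoters of the table, and TGAGTCA occurred before Il6, Srxn1 and Cldn4 and in 4.46% of all promoters. The kappaB-type and TGAGTCA matches did not overlap. The antioxidant response core TGACNNNGC, to which NRF2 binds, had 0 matches in the 5 promoters and occurred in 10.2% of all promoters, and GGACTTTCC, one form of GGANTTTCC, had 0 and occurred in 0.283%. A match describes the sequence and shows no binding.

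How far VALI 4 followed VALI 1 to 3 was measured over the probe sets called without it with a change of at least 1. Of 397 that rose, VALI 4 was beyond all Control arrays on the VALI side for 187 (47.1%), within the Control range for 154 (38.8%) and beyond it on the opposite side for 56 (14.1%). Of 388 that fell, 116 (29.9%) had VALI 4 beyond Control on the VALI side, 226 (58.2%) within the Control range and 46 (11.9%) on the opposite side. Over all tested genes, VALI 4 was above all 4 Control arrays for 23.9% and below them for 17.7%. The median VALI 4 change was 14.5% of the change of VALI 1 to 3 for the rises and 10.4% for the falls, and it was at least 50% of it for 82 rises and 40 falls.

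**Figure D2:**
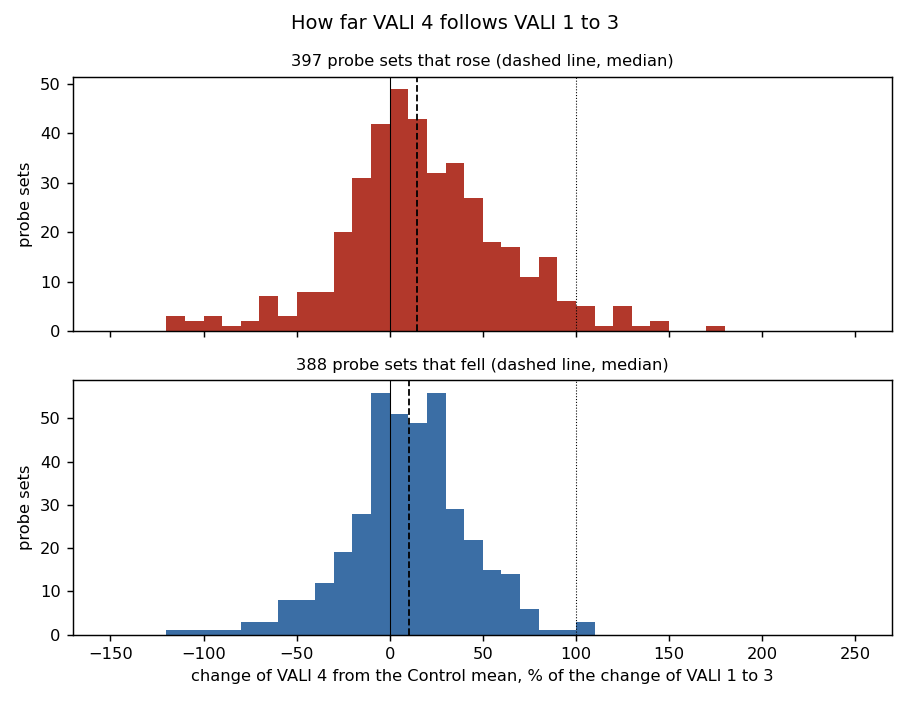
Number of probe sets by the change of VALI 4 from the Control mean, as a percentage of the change of VALI 1 to 3, for the 397 that rose (upper panel) and the 388 that fell (lower panel) by at least 1 without VALI 4. Most probe sets lie nearer to 0% than to 100%, with medians (dashed lines) of 14.5% for rises and 10.4% for falls, and the rises reach farther to the right.

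Several interleukin-6 family genes rose in VALI 1 to 3. Leaving out Il6, whose VALI 4 value decided which array was set aside, 6 of the other 10 tested members rose and 0 fell without VALI 4, against 6.80% of all 11262 genes rising and 11.8% falling, and 0 were called as labelled, against 0.151% of genes. The median difference of these 10 was 0.48 without VALI 4, against -0.09 over all genes. The shares of all genes that rose or fell apply to every list count below. Where VALI 4 is counted over a whole list, 23.9% of all genes had it above all 4 Control arrays and 17.7% below. Socs3, the feedback inhibitor of the interleukin-6 receptor, read 13.35, 13.54, 13.62 and 11.16 in VALI 1 to 4, against 10.69, 10.53, 10.66 and 11.16 in Control 1 to 4, a rise of 2.74 ± 0.15 without VALI 4 (adjusted p = 7.94e-05). VALI 4 was level with Control 4, the highest Control array. Osmr, the oncostatin M receptor, rose by 1.08 ± 0.12 (adjusted p = 0.00213), Lif, a cytokine of the family, by 2.20 ± 0.45 (adjusted p = 0.0173), and Pim1, a kinase induced by STAT3, by 1.24 ± 0.18 (adjusted p = 0.00534), and of these only Pim1 had VALI 4 (9.89) above Control (9.08 to 9.70). The receptor chains Il6st and Il6ra differed by -0.15 and 0.29 and were not called.

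Of 13 tested interleukin-1 family genes 6 rose and 0 fell without VALI 4, with a median of 0.61. Il1b, interleukin-1 beta, read 10.33, 10.47, 10.46 and 8.01 in VALI 1 to 4, against 5.85, 7.24, 7.52 and 7.72 in Control 1 to 4, and rose by 3.34 ± 0.41 (adjusted p = 0.00274). VALI 4 stood just above the highest Control array, and Control 1 was the lowest array by more than 1. Il1rn, the receptor antagonist, rose by 2.26 ± 0.55 (adjusted p = 0.0297) with VALI 4 within the Control range, and Casp4, a protease that senses bacterial lipopolysaccharide, rose by 1.61 ± 0.24 (adjusted p = 0.0053) with VALI 4 (7.24) above it (6.01 to 6.56). Il33, an alarmin of alveolar cells, read 11.94 to 12.36 in VALI 1 to 3, against 10.25 to 11.64 in Control, and was not called (adjusted p = 0.0626).

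Some chemokines were high in all 4 VALI arrays and some in VALI 1 to 3 alone. Of 10 tested neutrophil chemokines and their receptors and growth factors 4 rose without VALI 4 (median 1.81), and of 10 CC chemokines and receptors 4 rose (median 0.76), with 0 falls in either list. VALI 4 was above all Control arrays for 5 of 10 and 8 of 10 members of the 2 lists. Ccl9, a chemokine of the macrophage inflammatory protein family, read 10.32, 9.87, 10.63 and 10.13 in VALI 1 to 4, against 8.47, 9.26, 9.62 and 9.02 in Control 1 to 4 (1.18 ± 0.28 without VALI 4, adjusted p = 0.0283). Ccl17, a ligand for T cells, read 9.19, 8.11, 8.55 and 8.48 in VALI 1 to 4, against 6.96, 7.80, 7.82 and 7.20 in Control 1 to 4 (1.17 ± 0.31, adjusted p = 0.0381). VALI 4 was among the other VALI arrays for both, and neither call held with the sex pattern as a covariate. Cxcl3 read 5.18, 4.54, 7.45 and 6.07 in VALI 1 to 4, against 3.73, 4.12, 4.12 and 3.79 in Control 1 to 4, with no overlap, but it was not called as labelled (adjusted p = 0.121) or without VALI 4 (adjusted p = 0.0839). Ccl11, the eosinophil chemokine eotaxin, read 9.40, 8.43, 8.89 and 6.87 in VALI 1 to 4, against 4.91, 6.47, 6.86 and 6.98 in Control 1 to 4, and rose only without VALI 4 (2.60 ± 0.50, adjusted p = 0.0136). Ccr1, a receptor of neutrophils and monocytes, rose by 2.62 ± 0.30 without VALI 4 (adjusted p = 0.00222), with VALI 4 (7.08) above Control (5.69 to 6.94).

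NF-kB feedback genes rose in VALI 1 to 3 by moderate amounts, and VALI 4 took part in most of them. Of 13 tested 7 rose and 1, the kinase gene Ikbke, fell without VALI 4 (median 0.64), and in 6 of the 7 VALI 4 also lay above all Control arrays. Nfkbiz, an atypical IkB protein needed for Il6 transcription in macrophages, read 11.17, 11.14, 11.41 and 10.44 in VALI 1 to 4, against 9.84, 9.72, 9.89 and 10.10 in Control 1 to 4 (1.35 ± 0.11 without VALI 4, adjusted p = 0.00058). Bcl3, another atypical IkB protein, rose by 2.56 ± 0.17 (adjusted p = 0.000168), Tnfaip3, the A20 ubiquitin-editing enzyme, by 0.92 ± 0.14 (adjusted p = 0.00617), and Birc3, an inhibitor of apoptosis, by 0.79 ± 0.08 (adjusted p = 0.0013). None of them passed as labelled, where the adjusted p was 0.0694 for Nfkbiz. Nfkbia, the classical inhibitor IkB alpha, differed by 0.22 and was not called.

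The early response factors fell into genes that VALI 4 shared and genes that it did not. Of 22 tested 11 rose and 0 fell without VALI 4 (median 0.96), and 3 rose as labelled. Fosl1, the Fos family member Fra-1, read 7.67, 8.58, 9.30 and 2.02 in VALI 1 to 4, against 2.13, 2.12, 2.04 and 2.04 in Control 1 to 4, and rose by 6.43 ± 0.34 without VALI 4 (at least 14.5-fold, adjusted p = 6.84e-05), with VALI 4 at the level of the Control arrays. Myc read 8.50, 8.76, 9.15 and 6.13 in VALI 1 to 4, against 5.41, 5.86, 5.61 and 6.48 in Control 1 to 4 (2.96 ± 0.27, adjusted p = 0.000846), and Maff, a small Maf protein, rose by 2.13 ± 0.17 (adjusted p = 0.000376) with VALI 4 within the Control range. Ier2 and Egr2 had VALI 4 above Control, at 11.72 and 9.18 in VALI 4, against 10.85 to 11.22 and 8.01 to 8.83 in Control, and rose by 0.70 ± 0.14 and 1.92 ± 0.25 without VALI 4 (adjusted p = 0.0143 and 0.0036). Jun and Jund differed by 0.08 and 0.16 and were not called. The stretch-responsive matrix protein gene Ccn1 read 11.93, 12.64, 12.10 and 12.44 in VALI 1 to 4, against 11.37, 10.90, 11.29 and 11.64 in Control 1 to 4 (0.92 ± 0.21 without VALI 4, adjusted p = 0.0253), while its relative Ccn2 differed by 0.29 and was not called.

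**Figure D3:**
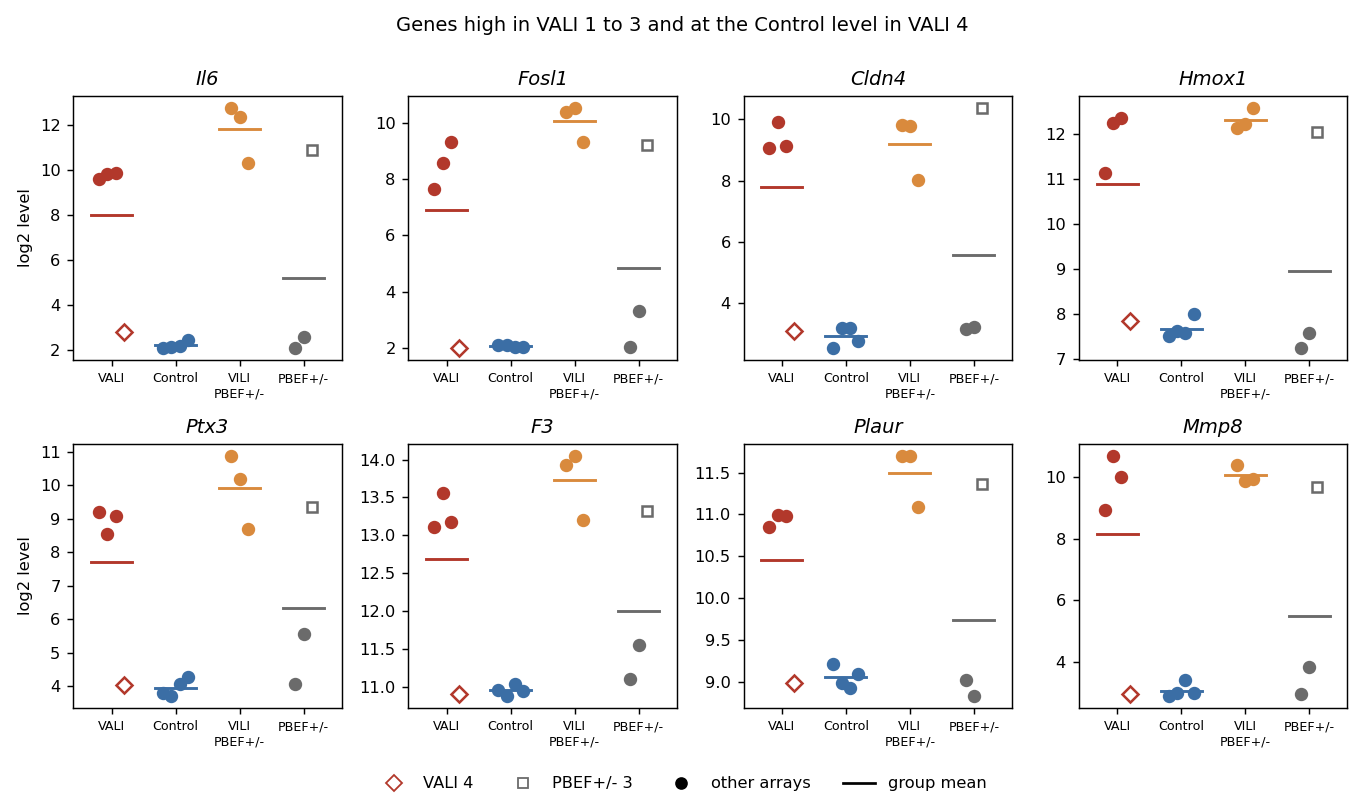
Log2 level of 8 genes that were high in VALI 1 to 3 and not in VALI 4, 1 panel a gene, with 1 point an array for VALI, Control, VILI PBEF+/- and PBEF+/- and a bar at each group mean. VALI 4, an open diamond, sits at the level of the 4 Control arrays in each panel, and PBEF+/- 3, an open square, at the level of the ventilated arrays.

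Several targets of NRF2, the transcription factor that responds to oxidants, rose in VALI 1 to 3. Of 18 tested 9 rose and 0 fell (median 0.57), 0 were called as labelled, and VALI 4 was above all Control arrays for 4 of the 9. Srxn1, which repairs oxidised peroxiredoxins, read 11.97, 12.54, 12.79 and 9.25 in VALI 1 to 4, against 8.96, 8.48, 8.80 and 9.10 in Control 1 to 4 (3.60 ± 0.21 without VALI 4, adjusted p = 0.000114). Hmox1, haem oxygenase 1, read 11.13, 12.24, 12.36 and 7.84 in VALI 1 to 4, against 7.51, 7.61, 7.57 and 8.00 in Control 1 to 4 (4.24 ± 0.29, adjusted p = 0.000225). Slc7a11, the cystine importer, rose by 5.29 ± 0.28 (at least 12-fold, adjusted p = 6.84e-05), and Gclc, the catalytic subunit of glutathione synthesis, by 1.89 ± 0.14 (adjusted p = 0.000326). VALI 4 was within the Control range for Hmox1 and Slc7a11 and just outside it for Srxn1 and Gclc, in Gclc on the low side (12.32 in VALI 4, against 12.39 to 13.02 in Control). Osgin1 and Pgd, an oxidative stress inhibitor of growth and an enzyme of the pentose phosphate pathway, had VALI 4 above Control and rose by 1.87 ± 0.30 and 0.81 ± 0.08 without it (adjusted p = 0.0072 and 0.00145). Nqo1, a commonly used NRF2 target, differed by 0.33 and was not called, with Control values from 5.44 to 7.46.

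The metal-binding metallothioneins moved with them. Mt1 read 14.15, 14.09, 13.94 and 11.64 in VALI 1 to 4, against 11.28, 11.24, 11.53 and 10.88 in Control 1 to 4 (2.83 ± 0.14 without VALI 4, adjusted p = 5.3e-05), and Mt2 read 13.74, 13.65, 13.58 and 10.73 in VALI 1 to 4, against 9.83, 10.21, 10.62 and 9.11 in Control 1 to 4 (3.71 ± 0.31, adjusted p = 0.000541). VALI 4 was just above the highest Control array for both. Slc39a14, a zinc importer induced by interleukin-6, rose by 1.73 ± 0.14 without VALI 4 (adjusted p = 0.000535), and VALI 4 (6.83) was below every Control array (6.99 to 7.42).

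Most genes of the ATF4 response to amino acid shortage rose in VALI 1 to 3, and so did most aminoacyl-tRNA synthetases, which charge tRNAs. Of 19 tested ATF4 response genes 13 rose and 0 fell without VALI 4 (median 0.93), and VALI 4 was above Control for 7 of the 13. Of 12 tested synthetases 9 rose and 1 fell (median 0.61), and VALI 4 was above Control for 2 of the 9. Slc7a5, a transporter of large neutral amino acids, read 9.64, 10.06, 10.16 and 7.17 in VALI 1 to 4, against 5.80, 6.53, 6.94 and 6.25 in Control 1 to 4 (3.58 ± 0.27, adjusted p = 0.000329). Atf4 itself rose by 1.24 ± 0.09 (adjusted p = 0.000329), Mthfd2, of the mitochondrial folate cycle, by 2.87 ± 0.23 (adjusted p = 0.000414), and Psat1, of serine synthesis, by 2.25 ± 0.22 (adjusted p = 0.00123). Psat1 read 8.58 in VALI 4, above the 7.04 to 7.74 of Control. Among synthetases the rises ran from 0.47 for Iars to 0.99 for Cars, and Wars, which interferons induce, fell by 0.50 (adjusted p = 0.026).

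Chaperone genes gave no call. Of 13 tested heat shock chaperones and 14 tested chaperones of the endoplasmic reticulum, 0 were called as labelled or without VALI 4, with medians of 0.09 and 0.03 without VALI 4. At an unadjusted p under 0.05 in limma there were 0 of 13 and 0 of 14 without VALI 4, and 0 of 13 and 1 of 14 as labelled. Hspa5, the chaperone BiP, read 14.33, 14.36, 14.65 and 13.89 in VALI 1 to 4, against 14.13, 14.61, 14.59 and 14.11 in Control 1 to 4. Hspa1b, an inducible Hsp70, ranged from 12.33 to 14.59 in VALI and from 12.10 to 14.20 in Control, and differed by 1.15 ± 0.61 without VALI 4 (adjusted p = 0.234).

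Many ribosome production genes rose in VALI 1 to 3, and VALI 4 was also above Control for part of them. Of 22 tested ribosome biogenesis genes 13 rose and 0 fell without VALI 4 (median 0.56), and VALI 4 was above Control for 8 of the 13. Of 8 tested small nucleolar RNA host genes 5 rose (median 0.72), with VALI 4 above Control in all 5, and 7 of 8 had VALI arrays that did not overlap Control, against 4.68% of all genes. Rrs1, a ribosome assembly factor, rose by 1.06 ± 0.09 (adjusted p = 0.000498), with VALI 4 (11.10) barely above Control (10.76 to 11.09), and Rrp12 by 2.09 ± 0.20 (adjusted p = 0.000907). Ncl, the abundant nucleolar protein nucleolin, rose by 0.39 ± 0.06 (adjusted p = 0.00503). Odc1, which makes putrescine, rose by 0.99 ± 0.13 without VALI 4 (adjusted p = 0.00405), one of 5 rises among 10 tested genes of polyamine and arginine metabolism, and VALI 4 (12.10) was level with Control (11.76 to 12.14).

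Many matrix remodelling genes rose by large amounts in VALI 1 to 3, and VALI 4 lay near Control for most of them. Of 18 tested 11 rose and 0 fell without VALI 4 (median 1.72), while the median difference of VALI 4 alone from Control was -0.17. Ptx3, a soluble pattern receptor of inflamed tissue, read 9.19, 8.56, 9.09 and 4.04 in VALI 1 to 4, against 3.79, 3.73, 4.07 and 4.28 in Control 1 to 4 (4.98 ± 0.21 without VALI 4, at least 19.5-fold, adjusted p = 2.35e-05). Adamts4, a protease of the proteoglycan aggrecan, rose by 3.68 ± 0.22 (at least 5.16-fold, adjusted p = 0.000115), Has1, a hyaluronan synthase, by 4.65 ± 0.38 (at least 9.46-fold, adjusted p = 0.000469), Timp1, a metalloproteinase inhibitor, by 3.03 ± 0.20 (adjusted p = 0.000168), and Tnfaip6, which crosslinks hyaluronan, by 2.49 ± 0.17 (adjusted p = 0.000192). Of these VALI 4 was above Control for Timp1 alone (5.12 in VALI 4, against 4.49 to 5.04 in Control). Mmp12, the macrophage elastase, had another pattern and read 8.16, 4.70, 8.20 and 8.75 in VALI 1 to 4, against 4.18, 4.42, 4.69 and 4.69 in Control 1 to 4, high in VALI 4 and low in VALI 2, and was not called without VALI 4 (adjusted p = 0.0661).

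Coagulation genes behaved like matrix genes. Of 10 tested 6 rose and 0 fell without VALI 4 (median 1.01). F3, tissue factor, which starts clotting, read 13.11, 13.56, 13.18 and 10.90 in VALI 1 to 4, against 10.96, 10.89, 11.04 and 10.95 in Control 1 to 4 (2.32 ± 0.11, adjusted p = 4.72e-05), and Plaur, the urokinase receptor, read 10.85, 11.00, 10.99 and 8.98 in VALI 1 to 4, against 9.22, 8.99, 8.92 and 9.10 in Control 1 to 4 (1.89 ± 0.10, adjusted p = 6.84e-05). VALI 4 was at the Control level for both. Procr, the endothelial protein C receptor, rose by 1.15 ± 0.17 (adjusted p = 0.00534) with VALI 4 (8.16) above Control (7.33 to 7.80). Thbd, the anticoagulant thrombomodulin, read 13.69, 13.91, 13.74 and 13.93 in VALI 1 to 4, against 14.01, 14.53, 14.38 and 14.06 in Control 1 to 4, lower in every VALI array without passing (adjusted p = 0.0501 without VALI 4). Ptgs2, the inducible cyclooxygenase of prostaglandin synthesis, read 11.32, 12.09, 12.77 and 9.96 in VALI 1 to 4, against 9.23, 8.40, 8.10 and 8.97 in Control 1 to 4, and rose by 3.38 ± 0.38 (adjusted p = 0.00186) with VALI 4 above every Control array.

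Some epithelial genes of junctions and of the cytoskeleton rose in VALI 1 to 3. Of 16 tested junction, keratin and integrin genes 7 rose and 1, the tight junction gene Tjp3, fell without VALI 4 (median 0.24). Cldn4, a claudin that tightens the alveolar barrier, read 9.05, 9.93, 9.13 and 3.10 in VALI 1 to 4, against 2.54, 3.20, 3.19 and 2.78 in Control 1 to 4 (6.44 ± 0.27, at least 26.2-fold, adjusted p = 2.35e-05), which put VALI 4 within the Control range. The keratins Krt8, Krt18 and Krt19 of simple epithelium rose by 1.66 ± 0.10, 1.69 ± 0.13 and 1.43 ± 0.13 (adjusted p = 9.91e-05, 0.000329 and 0.00083), and VALI 4 was within or below the Control range for all of them. Ereg, a ligand of the EGF receptor, read 8.09, 7.93, 7.70 and 4.10 in VALI 1 to 4, against 3.45, 3.50, 3.77 and 3.51 in Control 1 to 4 (4.35 ± 0.15, at least 9.5-fold, adjusted p = 1.58e-05), with VALI 4 above Control by a little. Itgb8, an integrin subunit that activates TGF-beta, had VALI 4 among the other VALI arrays, at 6.81, 6.82, 7.67 and 6.91 in VALI 1 to 4, against 5.82, 5.61, 5.69 and 6.08 in Control 1 to 4 (1.30 ± 0.24 without VALI 4, adjusted p = 0.0121).

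Among the epithelial marker lists, motile cilia had the most falls. Of 18 tested motile cilia markers 14 fell and 0 rose without VALI 4 (median -0.79), while the median of VALI 4 was -0.04 and it lay below Control for 3 of the 14. Here too, fewer cells and less RNA per cell cannot be told apart. Foxj1, the master regulator of motile cilia, read 8.71, 8.86, 9.13 and 9.85 in VALI 1 to 4, against 10.34, 10.02, 10.13 and 9.18 in Control 1 to 4 (-1.01 ± 0.26, adjusted p = 0.0375), and the axoneme genes Tekt4 and Rsph4a fell by 2.53 and 1.92 (adjusted p = 0.00252 and 0.00179). Club cell markers fell in 6 of 10, with differences from -0.85 for Aldh1a7 to -0.16 for Scgb1a1, and in 5 of the 6 VALI 4 was also below Control. Alveolar type I markers fell in 6 of 12, with Rtkn2 at -1.16 ± 0.17 (adjusted p = 0.00514) and Ager at -0.34 ± 0.06 (adjusted p = 0.00923), and VALI 4 was below Control for 3 of the 6. Alveolar type II markers were called in 0 of 11 with or without VALI 4, with a median of -0.04 without it, and the surfactant gene Sftpc read 15.45 to 15.58 in VALI and 15.61 to 15.70 in Control, a narrow gap with no overlap. At an unadjusted p under 0.05 there were 3 of 11 without VALI 4 and 2 of 11 as labelled.

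**Figure D4:**
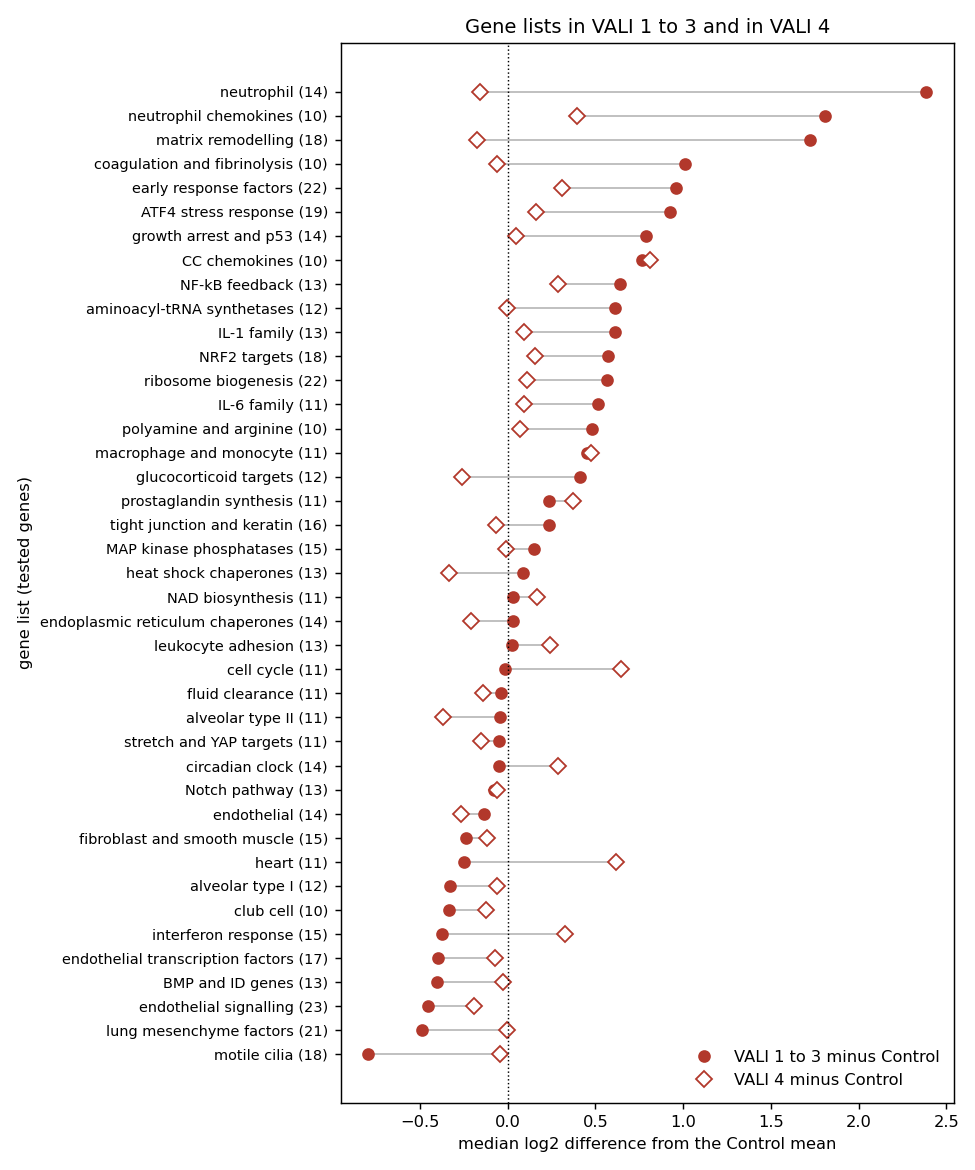
Median log2 difference from Control over the tested genes of 41 gene lists with at least 10 tested genes, 1 row a list, for VALI 1 to 3 (filled circle) and for VALI 4 (open diamond), with a dotted line at 0. Neutrophil markers, neutrophil chemokines and matrix remodelling genes have the largest VALI 1 to 3 medians, at 2.38, 1.81 and 1.72, with VALI 4 at -0.15, 0.40 and -0.17, while for CC chemokines both symbols lie close together at 0.76 and 0.81.

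Among endothelial genes, falls outnumbered rises in VALI 1 to 3. Of 23 tested endothelial signalling genes 10 fell and 1, the sphingosine kinase gene Sphk1, rose without VALI 4 (median -0.45), and of 17 endothelial transcription factors 7 fell and 1, Foxo1, rose (median -0.40). VALI 4 was below Control for 3 of the 10 and 3 of the 7. Another probe set of Sphk1 went the other way, at -0.31 without VALI 4, and was not called. Klf2, the factor induced by laminar flow, read 11.65, 12.04, 11.24 and 13.43 in VALI 1 to 4, against 13.87, 13.77, 13.77 and 13.29 in Control 1 to 4 (-2.03 ± 0.20, adjusted p = 0.00123). Tek, the angiopoietin receptor Tie2, read 12.51, 12.61, 12.44 and 13.21 in VALI 1 to 4, against 13.26, 13.38, 13.38 and 13.60 in Control 1 to 4 (-0.89 ± 0.09, adjusted p = 0.00123), with VALI 4 just below every Control array. Kdr, the main VEGF receptor, fell by 0.94 (adjusted p = 0.0194), Nos3, endothelial nitric oxide synthase, by 0.87 (adjusted p = 0.0229), and Acvrl1, the endothelial BMP receptor ALK1, by 0.80 (adjusted p = 0.00117). The junction genes Cldn5 and Cdh5 differed by 0.16 and -0.18 and were not called. Selp, P-selectin, rose, at 7.86, 7.15, 8.14 and 5.94 in VALI 1 to 4, against 4.62, 5.38, 5.39 and 5.42 in Control 1 to 4 (2.51 ± 0.29, adjusted p = 0.0022), while Icam1 and Vcam1 differed by 0.16 and 0.02 and were not called.

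Some mesenchymal signalling genes fell in VALI 1 to 3. Of 21 tested lung mesenchyme factors 8 fell and 0 rose (median -0.48), and VALI 4 was below Control for 1 of the 8. Wnt2, a ligand made by lung fibroblasts, read 5.69, 5.25, 6.16 and 8.24 in VALI 1 to 4, against 8.35, 7.31, 7.08 and 8.72 in Control 1 to 4 (-2.16 ± 0.43, adjusted p = 0.0153). Hhip, an inhibitor of hedgehog ligands, fell by 1.33 (adjusted p = 0.00795) and Bmp6 by 1.01 (adjusted p = 0.00663). Of 15 fibroblast and smooth muscle markers 1 fell, the methyltransferase gene Inmt, against 11.8% of all genes.

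Most neutrophil markers were high in VALI 1 to 3, and most were near the Control level in VALI 4. Of 14 tested 9 rose and 1, the haptoglobin gene Hp, fell without VALI 4 (median 2.38), and the median of VALI 4 was -0.15. VALI 4 was above all Control arrays for 3 of the 14 and below them for 3. The mean log2 level of the list was 9.30 to 10.07 in VALI 1 to 3 and 7.44 in VALI 4, against 6.66 to 7.57 in Control. S100a8, the abundant calprotectin subunit, read 14.32, 14.84, 14.51 and 10.45 in VALI 1 to 4, against 10.23, 11.60, 11.83 and 11.60 in Control 1 to 4 (3.24 ± 0.36, adjusted p = 0.00188), and Mmp8, the neutrophil collagenase, read 8.94, 10.70, 10.01 and 2.96 in VALI 1 to 4, against 2.91, 2.98, 3.41 and 2.98 in Control 1 to 4 (6.82 ± 0.37, at least 37.5-fold, adjusted p = 7.89e-05). Cxcr2, the receptor for Cxcl1 and Cxcl2, rose by 2.64 ± 0.28 (adjusted p = 0.00153), with VALI 4 (5.67) just below Control (5.69 to 6.17). The granule genes Ltf and Ngp of immature neutrophils differed by 0.60 and 1.07 and were not called. VALI 4 thus had Cxcl1 and Cxcl2 above Control while Cxcr2, S100a8 and Mmp8 were not. Clec4e, on the same marker list, was above Control (4.86 in VALI 4, against 2.05 to 3.19 in Control). The part of neutrophils in the rise of Il1r2 and Clec4e was not tested.

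Lists of other leukocytes differed among themselves. Of 11 tested macrophage and monocyte markers 1 rose, the lipopolysaccharide co-receptor Cd14 (1.57 ± 0.21 without VALI 4, adjusted p = 0.00374). VALI 4 was above Control for 8 of the 11, against 23.9% of all genes. Of 9 T and NK cell markers Il7r rose and Prf1 fell, 1 each, against 6.80% and 11.8% of all genes. Of 7 B cell markers 5 fell and 0 rose without VALI 4 (median -1.14), but VALI 4 was above all Control arrays for 7 of 7. Cd79a, a chain of the B cell receptor, read 8.54, 7.69, 8.04 and 10.41 in VALI 1 to 4, against 9.76, 8.91, 9.38 and 8.87 in Control 1 to 4 (-1.14 ± 0.27, adjusted p = 0.0281), and Ms4a1, the antigen CD20, read 8.55, 7.53, 7.97 and 10.11 in VALI 1 to 4, against 9.05, 8.71, 9.62 and 9.32 in Control 1 to 4 (-1.16 ± 0.28, adjusted p = 0.0302). VALI 4 was the highest of the 8 arrays and VALI 1 to 3 the lowest, and neither was called with all arrays (adjusted p = 0.576 and 0.489). Neither call held with the sex pattern as a covariate.

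Of the largest changes that rested wholly on leaving out VALI 4, most rises were already described and the falls were not. Beyond those rises, Doc2b, a calcium sensor of vesicle release, read 7.84, 7.90, 8.20 and 1.88 in VALI 1 to 4, against 1.95, 2.32, 2.52 and 1.57 in Control 1 to 4 (5.89 ± 0.24, at least 9.99-fold, adjusted p = 2.35e-05). Cckar, the cholecystokinin A receptor, showed the largest fall and read 7.67, 7.30, 7.49 and 11.20 in VALI 1 to 4, against 11.20, 11.13, 11.09 and 11.54 in Control 1 to 4 (-3.75 ± 0.14, adjusted p = 1.97e-05). Both left VALI 4 among or next to the Control arrays. Kif26b, a kinesin relative of developing tissue, and Mgat3, a glycosyltransferase, fell by 2.94 and 2.57 (adjusted p = 0.00471 and 0.000112), at least 3.14-fold for Mgat3.

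For some genes VALI 4 lay as far from Control as VALI 1 to 3 or farther. Pik3cg, the phosphoinositide kinase of leukocytes, read 6.13, 5.93, 5.09 and 6.17 in VALI 1 to 4, against 4.30, 4.18, 4.63 and 4.05 in Control 1 to 4 (1.43 ± 0.27 without VALI 4, at least 2.09-fold, adjusted p = 0.0132). Clec7a, the beta-glucan receptor dectin-1, read 10.91, 10.84, 11.66 and 11.44 in VALI 1 to 4, against 9.66, 9.91, 9.99 and 10.67 in Control 1 to 4 (1.08 ± 0.28, adjusted p = 0.0362). Among falls, Lrat, which esterifies retinol for storage, read 6.16, 6.16, 6.50 and 6.22 in VALI 1 to 4, against 9.05, 8.11, 7.19 and 7.97 in Control 1 to 4 (-1.81 ± 0.38, adjusted p = 0.0192), and Enah, an actin regulator, read 6.82, 7.03, 6.76 and 6.86 in VALI 1 to 4, against 8.68, 8.18, 8.20 and 7.36 in Control 1 to 4 (-1.23 ± 0.28, adjusted p = 0.025). These had no overlap between the groups and did not pass as labelled (adjusted p = 0.068, 0.0908, 0.081 and 0.0873). In VILI PBEF+/- 1 to 3 Pik3cg read 4.83, 3.88 and 5.30, against 5.65, 5.38 and 4.89 in PBEF+/- 1 to 3. In the same order Clec7a read 10.89, 10.96 and 10.53, against 10.75, 10.85 and 11.50. Lrat read 5.63, 5.57 and 5.86, against 8.49, 9.40 and 6.07, and Enah 7.14, 7.61 and 7.21, against 7.99, 6.86 and 7.25. Among these genes only Lrat had all ventilated arrays apart from PBEF+/- 1 and 2.

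For others VALI 4 lay on the far side of Control. Pvr, the poliovirus receptor of epithelium and endothelium, read 7.40, 7.66, 7.21 and 4.15 in VALI 1 to 4, against 5.56, 5.92, 5.98 and 5.77 in Control 1 to 4 (1.61 ± 0.17 without VALI 4, adjusted p = 0.00139). Kcnk1, a potassium channel, read 8.17, 8.69, 8.72 and 5.15 in VALI 1 to 4, against 6.11, 7.65, 7.46 and 6.51 in Control 1 to 4 (1.59 ± 0.38, adjusted p = 0.0291). With VALI 4 included neither was called (adjusted p = 0.533 and 0.607).

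VALI 4 also had levels of its own. It lay above all 7 other arrays by at least 1 for 58 probe sets and below them for 6, against 48 and 44 for Control 1 and 15 and 70 for Control 4. Cmya5 and Txlnb, genes of striated muscle, read 10.43 and 8.35 in VALI 4, 6.35 to 8.98 and 4.68 to 6.76 in VALI 1 to 3, and 6.67 to 7.34 and 5.29 to 6.23 in Control. Of 11 tested heart markers VALI 4 was above all Control arrays for 11, against 23.9% of all genes, with a median of 0.61. VALI 1 to 3 differed from Control in these markers by a median of -0.25 with 0 called. Its platelet markers Pf4, Ppbp and Gp1bb were above Control in 3 of 3. The part of these tissues in the differences of VALI 4 was not tested.

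Nampt, whose product PBEF is studied in the other arrays of the series, was not called. It read 10.05, 9.91, 10.54 and 9.25 in VALI 1 to 4, against 10.21, 10.36, 10.21 and 9.95 in Control 1 to 4, with a difference of -0.24 ± 0.24 as labelled (adjusted p = 0.586) and -0.01 ± 0.16 without VALI 4 (adjusted p = 0.963). VALI 4 was the lowest of the 8 arrays. Of 11 tested NAD biosynthesis genes 1, the sirtuin gene Sirt3, fell and 0 rose without VALI 4, against 11.8% of all genes falling and 6.80% rising.

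Some genes separated the Control arrays, with Control 2 and 3 apart from Control 1 and 4. Fkbp5, a glucocorticoid target, read 13.19, 13.29, 13.10 and 10.09 in VALI 1 to 4, against 9.97, 11.98, 12.04 and 8.72 in Control 1 to 4, and Cdkn1a, the cell cycle inhibitor p21, read 12.44, 12.16, 11.46 and 9.74 in VALI 1 to 4, against 9.34, 12.39, 12.23 and 9.03 in Control 1 to 4. Arg2, a mitochondrial arginase, read 9.42, 9.64, 9.83 and 5.32 in VALI 1 to 4, against 4.49, 7.73, 8.26 and 6.13 in Control 1 to 4. In each, the arrays with the female pattern were high and those with the male pattern low, VALI 4 among the low ones. VALI 1 to 3 also lay above every Control array for Fkbp5 and Arg2, and overlapped Control for Cdkn1a. Fkbp5 and Cdkn1a were not called without VALI 4 (adjusted p = 0.0606 and 0.35), and Arg2 was (2.98 ± 0.81, adjusted p = 0.0436), but not with the sex pattern as a covariate. With that covariate 17 of the genes named here as called without VALI 4 lost their call, namely Arg2, Bmpr1a, Cars, Ccl9, Ccl11, Ccl17, Cd79a, Clec7a, Enah, Foxj1, Iars, Il1rn, Lrat, Ms4a1, Pik3cg, Scgb1a1 and Wars. Over all probe sets the covariate gave 1809 calls, and 1539 of the 3171 calls (48.5%) were among them in the same direction. An alternative chosen after seeing the data used only arrays with the female pattern, VALI 1 to 3 against Control 2 and 3. It gave 3481 calls, and 2398 of the 3171 (75.6%) were among them in the same direction.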

How the data were processed

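The authors deposited log2 expression values for the 45101 probe sets of an Affymetrix mouse array, made from 6 µg of total RNA per sample, and MAS5 and GCRMA are named, with no version or role, in the submitters' processing notes. Array medians ran from 4.61 to 4.75 over the 8 arrays. The number of arrays limits the precision. GEO's platform annotation gave 34958 probe sets 1 symbol, 932 several and 9211 none, and 34754 of those with 1 symbol were matched by Entrez ID to RefSeq (GRCm38.p6), with 0 symbols changed.

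The 4 VALI and 4 Control arrays were fitted with limma 3.58.1 in R 4.3.3 (lmFit, eBayes with a variance trend) over the 19462 probe sets, of 11262 genes, above their array's median in at least 3 of the 8 arrays. Rises given with an "at least" fold had all 4 Control arrays under the median, so their probe sets passed this filter through VALI arrays alone. Sema3a passed it through Control arrays alone. The p-values of such probe sets are conditional on that. Benjamini-Hochberg adjusted p-values were taken over all 19462 probe sets, with calls under 0.05. The fit was repeated without VALI replicate 4. A gene in a list is represented by its probe set with the highest mean, and a gene called as labelled by its called probe set. Where all arrays of a group lay under their array median, the "at least" fold was taken against that median. Genes were named by rule: Il6, Nampt, the largest changes of each fit, those with VALI 4 farthest to either side, and list members with the smallest p. Others, such as the genes that divided the Control arrays and most members shown as not called, were picked after their values were seen. The members and lists were chosen with earlier results of these data known. The scripts were tested on simulated data. Ddx3y had no probe set, so the sex pattern was read from Xist and Eif2s3y.

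Alternatives changed the filter, the probe set per gene, the variance prior, array weights, the samples sharing a spread, normalization, a floor at the array median, the sex pattern as a covariate, a replicate block and each array left out. Of 1295 genes called without VALI 4 with more than 1 tested probe set, 964 had a probe set that was not called and 3 had called probe sets of opposite sign.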

Additional observations from a re-analysis of the deposited data

Results flagged for a closer look

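In 40 of 174 groups of 4 arrays with values printed above, 1 array lay far from the other 3, its gap to the nearest exceeding Dixon's 95% critical value for the range of the group. Chance gives about 1 in 20, but many of these genes were named because VALI 4 stood apart in them, so its tally follows from that choice and is not set against chance. VALI 4 was that array in 27 of the 40, another VALI array in 3 and a Control array in 10.

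VALI 4 was low among the VALI arrays for interleukin-6 signalling and inflammation, at 2.78 for Il6, 11.16 for Socs3, 8.01 for Il1b, 6.55 for Il1r2 and 4.86 for Clec4e. It was low for metal and glutathione genes, at 11.64 for Mt1, 10.73 for Mt2, 6.83 for Slc39a14 and 12.32 for Gclc, for clotting genes, at 10.90 for F3 and 8.98 for Plaur, and for matrix genes, at 4.04 for Ptx3 and 5.12 for Timp1. It was also low for epithelial and surface genes, at 3.10 for Cldn4, 4.10 for Ereg, 4.15 for Pvr and 5.15 for Kcnk1. Further low values of VALI 4 were 10.45 for the neutrophil gene S100a8, 1.88 for Doc2b, 11.10 for Rrs1, 11.02 for Snhg1, 10.09 for Fkbp5, 5.32 for Arg2 and 2.64 for Xist. It was high at 11.20 for Cckar, 7.39 for Aqp4 and 10.95 for Eif2s3y.

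Among the other VALI arrays, VALI 1 was low for Fos at 12.96, VALI 2 low for Mmp12 at 4.70 and VALI 3 high for Itgb8 at 7.67. Among Control arrays, Control 1 was low for BC018473 at 2.08, S100a8 at 10.23, Selp at 4.62 and Timp1 at 4.49, and high for Hspa1b at 14.20. Control 2 was low for Psat1 at 7.04 and high for Sema3a at 6.46. Control 3 was high for Cxcr2 at 6.17 and Mmp8 at 3.41, and Control 4 was high for Il6 at 2.45.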

How the results depend on the processing

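As labelled, the count of 26 calls became 4 with no filter on low values, 0 with the stricter filter of 6 arrays over the median (4095 at an unadjusted p under 0.05 in limma), 15 with no variance trend, 16 with values raised to the array median, 51 with the sex pattern as a covariate, 6867 with array weights and 0 when all groups shared the spread (3449 at an unadjusted p under 0.05). It was 26 with 1 probe set per gene, 27 with a robust prior and 38 with quantile normalization. Leaving out each array in turn gave 3 to 3171 calls, the highest without VALI 4 and 6 or fewer without any other array. With array weights, VALI 4 weighed 0.235, and Il6 was then called as labelled.

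Without VALI 4, the 3171 calls became 2073 with no filter on low values, 805 when all groups shared the spread, 1809 with the sex pattern as a covariate and 7350 with array weights, and stayed within 1.5 times for the other filter, 1 probe set per gene, both variance priors, quantile normalization, the floor and the arrays of the female pattern only. Leaving out a further array gave 1143 to 3467 calls, with 1742 without Control 2, 1293 without VALI 1 and 1143 without VALI 2. None of the calls was called with the opposite sign in any of these fits. Of 95 genes named as called, 50 lost their call under at least 1 alternative, 46 of them when all groups shared the spread, 17 with the sex pattern as a covariate, and 25 when a further array was left out: Arg2, Bmpr1a, Cars, Ccl9, Ccl11, Ccl17, Ccn1, Cd79a, Clec7a, Enah, Eng, Foxj1, Iars, Ier2, Il1rn, Kcnk1, Kdr, Lif, Lrat, Ms4a1, Nos3, Pik3cg, Scgb1a1, Wars and Wnt2. Why they did so was not tested. Probe sets that the stricter filter or the choice of 1 probe set per gene removed were not counted as losing their call there. The 50 is thus a minimum.

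Whether replicate numbers pair the samples cannot be told from these values. The correlations of deviations from the group means of same-numbered VALI and Control arrays were -0.10, 0.27, 0.04 and 0.26, and VALI 1 and VALI 3 did not correlate best with the Control array of their own number. With the replicate number as a block, 4 probe sets were called as labelled and 1672 without VALI 4, where 13 of the 95 named genes lost their call.

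Among the genes named here, differences that changed sign belong to genes that were not called. With the sex pattern as a covariate, and likewise with arrays of the female pattern only, the differences were -0.29 for Cdkn1a, -0.037 for Il6ra, -0.011 for Jun, -0.192 for Ltf and -0.088 for Vcam1. Array weights gave -0.067 for Ltf and -0.098 for Vcam1, the replicate block gave -0.21 for Ltf, and quantile normalization gave 0.025 for Nampt. Leaving out a further array gave -0.29 to 0.028 for Cdh5, -0.21 to 0.94 for Ltf, -0.20 to 0.11 for Nampt, -0.048 to 1.68 for Ngp, 0.00 to 0.68 for Nqo1 and -0.050 to 0.074 for Vcam1.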

Other observations

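Growth arrest genes, BMP pathway genes and fluid transport genes were also called in VALI 1 to 3. Of 14 tested growth arrest and p53 target genes 6 rose and 0 fell without VALI 4 (median 0.79). Gadd45a, a stress-induced growth inhibitor, read 10.13, 10.05, 10.45 and 8.47 in VALI 1 to 4, against 8.04, 8.32, 8.23 and 8.41 in Control 1 to 4 (1.96 ± 0.14 without VALI 4, limma adjusted p = 0.000246). VALI 4 was just above the highest Control array. Of 13 tested BMP and ID genes 6 fell and 2 rose (median -0.40), and the rise of the signal transducer Smad1 (0.79 ± 0.11, adjusted p = 0.00503) stood beside falls of the receptor genes Bmpr1a (-0.40) and Eng (-0.46). Of 11 tested fluid clearance genes 4 fell and 0 rose. The water channel gene Aqp4 read 4.73 to 5.12 in VALI 1 to 3 and 7.39 in VALI 4, against 6.49, 6.51, 6.95 and 6.71 in Control 1 to 4 (-1.71 ± 0.17, adjusted p = 0.00123), with VALI 4 above every Control array and VALI 1 to 3 below. Of 13 tested leukocyte adhesion genes 4 rose and 1, Icam2, fell, and Selplg, the P-selectin ligand of leukocytes, read 9.86, 10.02, 10.07 and 10.05 in VALI 1 to 4, against 9.41, 9.44, 9.44 and 9.33 in Control 1 to 4, with no overlap (0.58 ± 0.09, adjusted p = 0.00663).

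In the remaining lists most tested genes were not called without VALI 4, where 6.80% of all genes rose and 11.8% fell. Rises and falls numbered 3 and 1 of 15 MAP kinase phosphatases and inhibitors, 2 and 0 of 9 EGF receptor genes, 3 and 2 of 11 stretch and YAP genes, 3 and 1 of 11 prostaglandin genes, 1 and 1 of 12 glucocorticoid targets, 2 and 1 of 14 clock genes, 0 and 2 of 15 interferon response genes, 0 and 2 of 13 Notch genes and 1 and 1 of 11 cell cycle genes. Marker counts were 1 and 3 of 14 for endothelium and 0 and 0 of 5 for mesothelium, 3 for fat, 1 for thymus and 1 for red blood cells. In VALI 4 the cell cycle genes had a median of 0.65 from Control, and 9 of 11 lay above all 4 Control arrays. Mki67, a protein of dividing cells, read 7.32, 7.29, 7.69 and 8.69 in VALI 1 to 4, against 7.37, 8.02, 7.77 and 7.62 in Control 1 to 4.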
